A study of Rattus norvegicus with 2 samples.

Results

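The 9 genes described here encode enzymes that make and break down heme: Alas1, Alad, Uros, Urod, Cpox, Ppox and Fech for synthesis, and Hmox1 and Blvra for breakdown. They were chosen by gene symbol, and they are 9 of 17108 gene symbols on a rat expression array. Their 10 probes, 1 per gene and 2 for Urod, were all detected on both arrays of the study. Liver RNA came from male Wistar rats of 22 weeks of age with chronic alcoholic fatty liver. All animals had received 52% alcohol at 1% of body weight for 7 weeks. For 4 further weeks, during which the labels do not make clear whether alcohol went on, 1 group was given EEP, which is called propolis here because the series title speaks of propolis extracts, in a 50% ethanol solution at 0.1% of body weight. The other group was given normal saline at the same dose, so that the groups also differed in the ethanol of the solution. RNA of 6 rats made up 1 pool for each group, which was read on 1 one-colour Agilent array. No animals without alcohol are among the samples used here.

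With 1 array per group there is no spread between replicates, and no test could be made. Signals are given as deposited, in log2 units, and differences are always propolis minus saline. As a measure of the spread between probes only, the differences read by the brightest and the next probe of a gene were compared. This covered 2596 genes with at least 2 detected probes. The robust SD of a difference was 0.28 log2 units for genes with a mean signal under 7, 0.17 from 7 to 10, 0.13 from 10 to 13 and 0.11 at 13 or more. This probe SD leaves out the spread between animals and between pools. It also leaves out any error that the probes of a gene share on an array. Real differences between the probes' targets are part of it, so it is no scale for a test. Of 41012 probes, 23054 were detected on both arrays, and 11915 genes were measured, with a median difference of 0.02. All 14 hepatocyte marker genes of a list were detected on both arrays, with differences from -0.62 to 0.26 at the brightest probe of each. Their other probes reached beyond this range, down to -0.73.

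Heme is an iron porphyrin built in a pathway that starts in the mitochondrion, passes through the cytosol and ends in the mitochondrion. In liver the first enzyme, 5-aminolevulinate synthase 1 (Alas1), is rate-limiting, is repressed by heme, and is induced together with drug-metabolising cytochromes P450, which take up a large part of the heme that hepatocytes make. Red cell precursors use a separate enzyme, Alas2, for the same step. Heme oxygenase 1 (Hmox1) opens the heme ring to biliverdin, which biliverdin reductase A (Blvra) turns into bilirubin; Hmox1 is induced by heme and by oxidative stress, and macrophages that take up old red cells are rich in it.

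The promoter windows of the 2 genes for the first step are shown because these genes differed in size of change between the pools, as given below. Each runs from 250 bases before to 50 bases after the annotated start, 5′ to 3′ on the gene's strand, from RefSeq on the rat build GRCr8. For Alas1 (chr8:115768593-115768892, minus strand) capitals mark TGCGCA, a motif of nuclear respiratory factor 1, and for Alas2 (chrX:22895200-22895499, plus strand) they mark AGATAA, a motif of GATA factors.
Alas1: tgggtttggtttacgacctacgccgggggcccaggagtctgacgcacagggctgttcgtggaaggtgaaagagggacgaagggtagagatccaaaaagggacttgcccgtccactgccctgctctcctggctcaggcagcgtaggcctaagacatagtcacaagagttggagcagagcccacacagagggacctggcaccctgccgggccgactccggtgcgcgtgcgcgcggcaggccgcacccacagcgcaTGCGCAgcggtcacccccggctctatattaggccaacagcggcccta
Alas2: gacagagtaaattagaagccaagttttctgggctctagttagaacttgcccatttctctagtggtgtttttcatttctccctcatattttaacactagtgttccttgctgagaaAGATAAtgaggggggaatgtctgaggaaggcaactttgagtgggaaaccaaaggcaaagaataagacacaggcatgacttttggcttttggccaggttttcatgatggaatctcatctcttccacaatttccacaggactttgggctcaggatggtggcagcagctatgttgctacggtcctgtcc

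Both strands were searched, and a palindrome was counted once. The Alas1 window held 1 TGCGCA, at position 4 after the annotated start, and 2424 of 33469 RefSeq windows of this length (7.24%) held at least 1. No other window of the 7 enzymes with an entry in the table held that motif; the windows of Cpox and Hmox1 were not used here. The Alas2 window held 1 AGATAA at -136, found in 11.6% of all windows, and the Fech and Blvra windows held 1 each. The E-box CACGTG, found in 6.42% of windows, occurred at 2 places for Alad and at 1 for Urod. The GC box GGGCGG, in 33.1% of windows, occurred 6 times for Alad, where neighbouring copies overlap, 3 times each for Urod and Fech and once for Ppox. CpG pairs numbered from 14 for Ppox to 22 for Alas1 in 6 of the 7 windows. Over all windows the median was 7 and the upper quartile 19. Blvra had 5 and Alas2 had 1. These matches describe letters in the windows and not binding.

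None of the 9 enzymes differed by as much as 1.5-fold between the pools, in either direction. Over all 11915 genes, 18.3% differed by at least 1.5-fold and 8.65% by at least 2-fold, and over the 10982 genes detected on both arrays 12.9% and 4.46% did. Differences ran from -0.35 for Hmox1 to 0.43 for Fech, with a median of -0.16. Of the 9 enzymes 3 lay above 0 and 6 below 0, while 52.4% of all genes lay above 0 and 47.4% below 0. The distance from 0 was more than 2 probe SDs for 4 enzymes, namely Fech, Alas1, Cpox and Hmox1, as it was for 25.5% of genes detected on both arrays. It was within 1 probe SD for Alad, Urod, Ppox and Blvra.

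**Figure D1:**
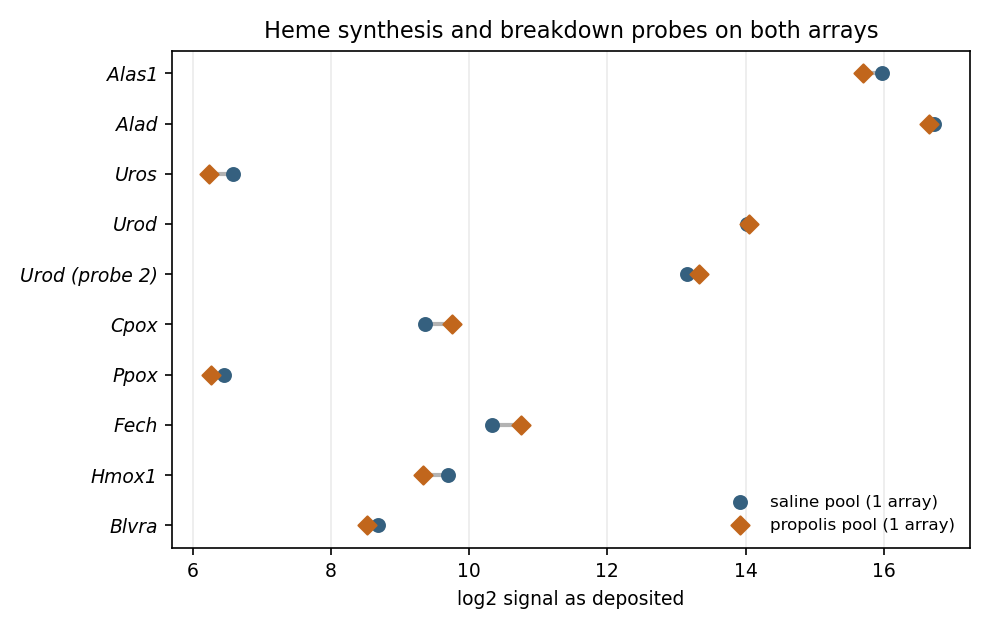
The log2 signal of each probe of the 9 enzymes is plotted for the saline pool (circles) and the propolis pool (diamonds), 1 array each, in pathway order from top to bottom. The 2 points of a probe lie close together throughout; Fech and Cpox lie higher and Alas1, Uros and Hmox1 lower in the propolis pool. Signals of different probes are not comparable with each other.

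Alas1 read 15.70 in the propolis pool and 15.97 in the saline pool, a difference of -0.26, so that the propolis signal was 83.2% of the saline signal. This is 2.35 probe SDs below 0, and 32.8% of genes within 1 log2 unit of its signal lay at least as far from 0. Alad, the zinc enzyme that joins aminolevulinate molecules into porphobilinogen, read 16.65 and 16.72, a difference of -0.07. Both of these early steps thus differed by 1.20-fold or less.

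Uros, which closes the tetrapyrrole ring, read 6.23 in the propolis pool and 6.58 in the saline pool. The difference of -0.35 was 1.23 probe SDs at this low signal. Urod, which removes carboxyl groups from uroporphyrinogen, was the enzyme with a second probe. Its brighter probe read 14.05 and 14.03 (difference 0.02) and its other probe 13.32 and 13.15 (difference 0.17), both above 0 and both small.

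The mitochondrial end of the pathway was not uniform. Cpox, coproporphyrinogen oxidase, read 9.75 in the propolis pool and 9.36 in the saline pool, 1.32-fold higher (0.40). Ppox, protoporphyrinogen oxidase, read 6.27 and 6.45, a difference of -0.18 that was 0.63 probe SDs. Fech, ferrochelatase, which inserts iron into protoporphyrin, read 10.76 and 10.33, which was 1.34-fold higher (0.43) and 3.28 probe SDs above 0. Among genes within 1 log2 unit of its signal, 12.6% lay at least as far from 0 as Fech and 15.8% as far as Cpox.

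For the breakdown enzymes both values were lower in the propolis pool. Hmox1 read 9.34 against 9.69, a difference of -0.35, or 78.4% of the saline signal and 2.01 probe SDs below 0. Of genes within 1 log2 unit of its signal, 19.3% lay at least as far from 0. Blvra read 8.52 against 8.68, a difference of -0.16 that was 0.92 probe SDs.

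The deposited coordinates of the probes have no genome build in the sources used here, and no annotation of that build was used, so exon or UTR positions are not given. In them the Fech probe lies on chromosome 18 from 60680214 to 60680273, the Cpox probe on chromosome 11 from 42748792 to 42748851 and the Hmox1 probe on chromosome 19 from 13969336 to 13969395, each over 60 bases. From first to last position, the Uros entry spans 973 bases, the Blvra entry 599 and that of the dimmer Urod probe 793. Of all placed probes, 83.0% span 60. Such a span is a distance on the genome and not the length of the probe. The Alas1 probe has no position in the table.

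The rest of the pathway came from a list of 5 genes, all detected on both arrays. Alas2, the erythroid enzyme of the first step, read 8.74 in the propolis pool and 9.86 in the saline pool, 2.17-fold lower (-1.12). It was the only gene of the list at least 2-fold apart; among all genes 5.08% were this far lower and 3.58% this far higher. Hmox2, the constitutive heme oxygenase, read 12.60 against 12.41 (0.19, and 0.38 by a second probe), and Blvrb, a biliverdin and flavin reductase, read 13.96 against 13.64 (0.32). Ugt1a1, which conjugates bilirubin for export into bile, read 11.26 against 10.45 and was 1.75-fold higher (0.81). Enzymes of the Ugt1a family share part of their transcript, which this probe may not separate.

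**Figure D2:**
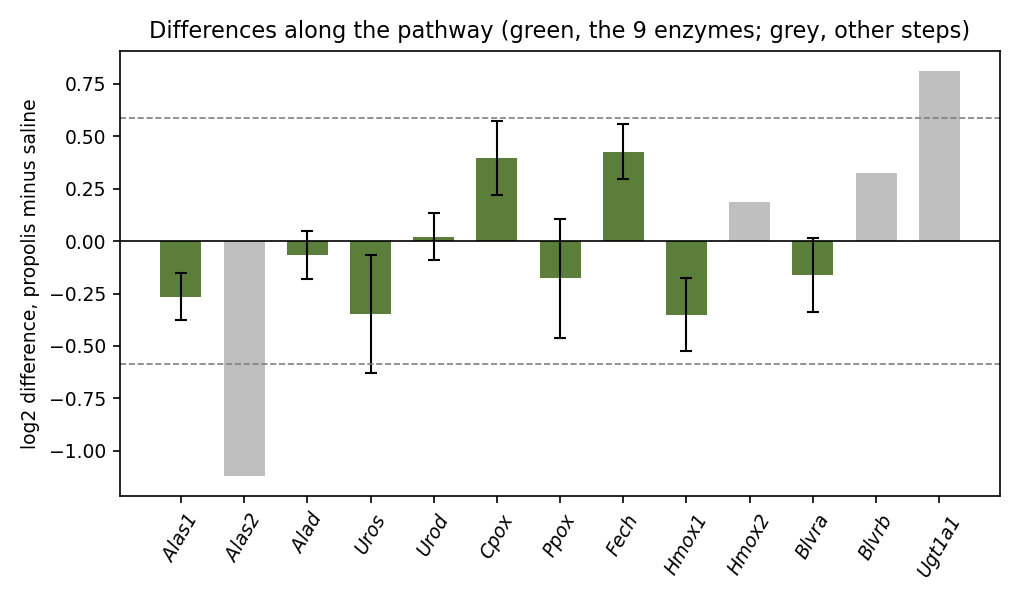
Bars give the log2 difference, propolis minus saline, of the brightest probe of each gene, in pathway order; green bars are the 9 enzymes, grey bars Alas2, Hmox2, Blvrb and Ugt1a1, and dashed lines mark 1.5-fold. Error bars on green bars are 1 probe SD at that signal, which leaves out the spread between animals and error shared by a gene's probes. All green bars stay inside the dashed lines, while Alas2 (-1.12) and Ugt1a1 (0.81) lie beyond them.

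Alas2 was set beside erythroid markers. Of 12 measured genes of that list, 7 were lower by 1.5-fold or more and 1 was higher, against 10.2% and 8.07% of all genes. The list includes Alas2 and the iron carrier gene Slc25a37. The globin genes Hbb (11.15 against 12.02, difference -0.86) and Hbb-b1 (14.87 against 15.69, difference -0.82) were lower. So were Ahsp, the chaperone of alpha globin (-1.79), and the blood group antigen gene Rhd (-1.20). The list's median was -0.84, or -0.63 where the 3 genes detected on a single array were set to their bound, and its summed signal was 15.02 in log2 units in the propolis pool and 15.85 in the saline pool. The erythroid transcription factor genes Gata1 and Klf1 were detected on neither array. Fewer cells of a type and less RNA per cell cannot be told apart in such tissue RNA, and the part of red cells in the Alas2 value was not tested.

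Liver Alas1 was then set beside the cytochromes P450, the oxidising enzymes that carry heme at their active site. The array had 72 P450 symbols, of which 59 were measured. By their measured signals, 9 of these were higher and 5 lower at 2-fold in the propolis pool, against 3.58% and 5.08% of all genes counted the same way, and their median was 0.15, against 0.02 for all genes. Among the 55 detected on both arrays, 7 were higher and 4 lower at that fold. Of all 10982 genes detected on both arrays, 192 were higher and 298 lower. Of the P450s detected on a single array, Cyp19a1 is counted as higher. Its bound of 0.56 in log2 units falls short of 2-fold. Families 1 to 3, which hold most drug-metabolising P450s, had a median of 0.37 over 35 genes, and at 1.5-fold 11 of them were higher and 5 lower, against 8.07% and 10.2% of all genes. Family 4, the fatty acid hydroxylases, had a median of -0.01 over 12 genes. Alas1, at -0.26, lay 0.64 below the median of families 1 to 3. It lay below 46 of the 59 P450s (78.0%), a share close to the 78.7% of all measured genes that lay above it.

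Among P450s detected on both arrays, Cyp2b1, the P450 most strongly induced by phenobarbital in rat liver, was furthest above 0. It read 15.10 against 12.92 and was 4.54-fold higher, with differences of 2.57, 0.94 and 2.92 at its other probes. Cyp8b1, a bile acid enzyme, read 13.48 against 11.63 (1.85), and Cyp2j4 read 13.65 against 11.99 (1.66). Cyp2b12 (1.45), Cyp2b15 (1.07) and Cyp4a1 (0.99), a fatty acid hydroxylase, were higher as well. Cyp3a2, a steroid and drug hydroxylase of male rats, read 17.67 against 16.54 (1.13), and Cyp2e1, which oxidises ethanol, read 17.37 against 16.30 (1.06). Cyp2b2 (0.49), Cyp1a2 (0.41), Cyp2c11 (0.37) and Cyp7a1 (0.15) differed by less than 1.5-fold. A probe of such a family may also read its close relatives.

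At the other end, Cyp2ab1 read 4.80 against 6.34 (-1.53), Cyp2c12, a P450 typical of female rats, 7.20 against 8.62 (-1.42) and Cyp27b1, the vitamin D hydroxylase, 4.84 against 6.07 (-1.24). Cyp2c22 (-1.02), Cyp2s1 (-0.91) and Cyp17a1 (-0.80), a steroid hydroxylase, were lower too, and the retinoic acid hydroxylase gene Cyp26a1 was 1.99-fold lower, while Cyp2c79 differed by -0.47. The P450s were also split at a mean signal of 13, chosen after the values were seen. Of 24 P450s at or above it, 9 were higher by 1.5-fold or more and 0 lower, and at 2-fold 3 were higher and 0 lower. These counts rest on the brightest probe of each gene. Cyp2c7 differed by -0.33 at that probe and by -0.63, -1.10 and -0.88 at its other 3. Cyp2d4, counted as higher at 1.5-fold, differed by 0.60 at its brightest probe and by 0.001 at its second. Of 35 below the split, 31 were detected on both arrays, and of these 5 were higher and 7 lower at 1.5-fold, and 4 were higher and 4 lower at 2-fold. All 24 and these 31 were detected on both arrays. Of the 10982 genes so detected, 598 were higher and 817 lower at 1.5-fold, and 192 and 298 at 2-fold. The summed linear signal of all measured P450s was 1.30-fold higher in the propolis pool, whereas the sum over all measured genes was 0.993 times the saline sum. Such a sum weights each probe by its own brightness and is not an amount of protein or heme.

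**Figure D3:**
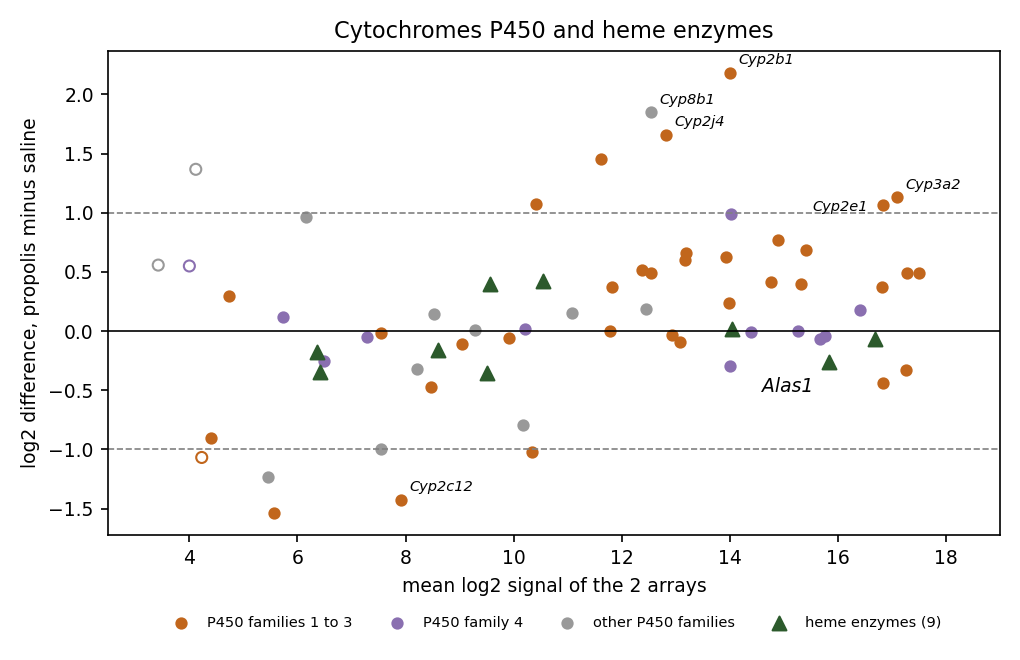
Each point is a gene, with the mean log2 signal of the 2 arrays on the x axis and the log2 difference, propolis minus saline, on the y axis; circles are the 59 measured P450s by family and triangles the 9 heme enzymes, and dashed lines mark 2-fold. Open circles are genes detected on 1 array, drawn at their bound. At mean signals of 13 or more, a cut chosen after the values were seen, 16 of 24 P450s lie above 0 and 7 below 0. Over all measured genes, 52.4% lie above 0 and 47.4% below 0. Alas1 (-0.26) lies below 0.

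Of 6 measured genes of P450 electron supply, 5 lay above 0, against 52.4% of all genes, and their median was 0.39. At 1.5-fold 0 of them were apart, against 12.9% of genes detected on both arrays. Cyb5a, cytochrome b5, which passes electrons to P450s and binds heme itself, read 15.47 against 15.02 (0.46), and Cyb5r3, its reductase, differed by 0.36 (0.18 by a second probe). The mitochondrial ferredoxin gene Fdx1 (0.44) and its reductase gene Fdxr (0.43) were close to these, and the outer mitochondrial Cyb5b differed by 0.15 and by -0.11 at its second probe. Por, the reductase that serves all microsomal P450s and heme oxygenase, lay on the other side, at 11.32 against 11.86 (-0.54).

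Regulators of Alas1 and Hmox1 lay on both sides of 0, with a median of 0.11 over 19 genes. Nr1i3, which encodes CAR, the nuclear receptor that mediates phenobarbital induction, read 10.59 against 9.74 and was 1.80-fold higher (0.85, and 0.97 by its second probe). Nr1i2, which encodes PXR, the receptor behind Cyp3a induction, read 12.30 against 12.88 (-0.59). These were the 2 of the 19 genes at least 1.5-fold apart, while 12.9% of all genes detected on both arrays were. Foxo1, through which insulin restrains Alas1, differed by -0.51, and its partner, the coactivator gene Ppargc1a, by -0.16 at a signal of 4.58 against 4.75. Nrf1, the gene of nuclear respiratory factor 1, read 4.94 against 4.54 (0.40). The clock repressor gene Nr1d1 differed by 0.33.

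For Hmox1, the activator gene Nfe2l2, which encodes NRF2, read 11.55 against 11.20 (0.36), and Bach1, the heme-sensing repressor of Hmox1, differed by 0.09 at both probes. Keap1, which holds NRF2 in check, differed by 0.06, and the partner genes Mafk and Mafg by 0.18 and -0.26. Other NRF2 target genes were mostly higher, although Hmox1 itself was not. Of 15 measured targets, 13 lay above 0, and at 2-fold 8 were higher and 0 lower, against 3.58% and 5.08% of all genes. Their median was 1.00. The aldo-keto reductase genes Akr7a3 (15.08 against 12.68, difference 2.40) and Akr1b8 (2.39), the iron-binding protein gene Pir (2.08) and Osgin1 (1.80) were the furthest above 0 of those detected on both arrays. Gclc, the catalytic subunit of glutathione synthesis, was 2.33-fold higher, and its partner Gclm, detected in the propolis pool only, at least 2.44-fold higher. Several of these genes answer to other receptors as well, and the list was made with earlier results of these arrays known.

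Macrophage markers were lower together with Hmox1. Of 16 measured genes, 14 lay below 0, and the median was -0.55. At 1.5-fold 7 were lower and 1, Cd14, was higher (0.60), against 10.2% and 8.07% of all genes. Marco, a scavenger receptor, read 7.78 against 10.31 (-2.53), the integrin gene Itgam differed by -1.71 and Cd163, the receptor for haemoglobin bound to haptoglobin, by -0.77 (-0.11 by a second probe). Vsig4, C1qb, C1qc and Csf1r were 1.59- to 1.62-fold lower. The summed signal of the list was 16.51 in log2 units in the propolis pool and 16.98 in the saline pool, a difference of -0.47. The part of macrophages in the Hmox1 value was not tested.

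**Figure D4:**
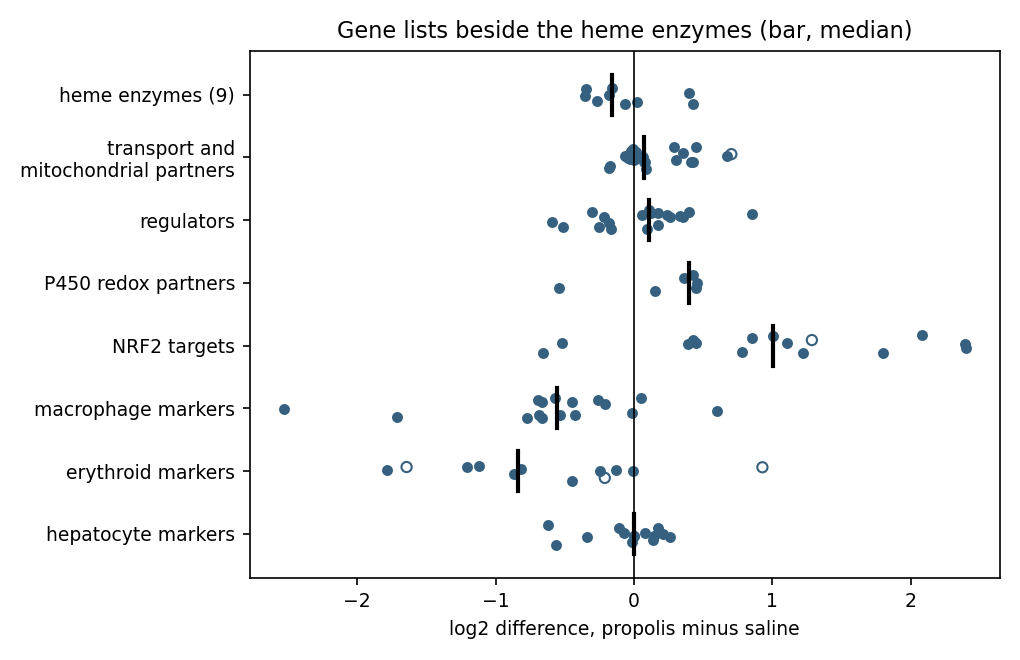
Each point is a measured gene and the x axis its log2 difference, propolis minus saline; rows are gene lists, black bars their medians of the measured differences, and open circles genes detected on 1 array, drawn at their bound. The 9 heme enzymes lie between -0.35 and 0.43, while NRF2 targets have a median of 1.00, macrophage markers of -0.55 and erythroid markers of -0.84.

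Genes that move heme and its precursors, or that serve the mitochondrial steps, had a median of 0.07 over 22 measured genes. Of these 14 lay above 0, against 52.4% of all genes. Clpx, the unfoldase that acts on aminolevulinate synthase in mitochondria, read 14.57 against 13.90 and was 1.59-fold higher (0.67), and Lonp1, a protease that degrades Alas1 when heme is plentiful, differed by 0.29. Flvcr2, a transporter of the heme exporter family, was detected in the propolis pool only (at least 1.63-fold higher). Tmem14c, which brings protoporphyrinogen into the matrix, differed by 0.35, the porphyrin transporter gene Abcb6 by 0.30 and the heme-binding Pgrmc1, a partner of both Fech and P450s, by 0.41. The glycine carrier gene Slc25a38, which supplies Alas1 with its substrate, differed by -0.07 and the iron carrier gene Slc25a28 by 0.07. Abcb10 (-0.17) and the lysosomal heme transporter gene Slc48a1 (-0.18) were the lowest of the list.

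Hemoproteins other than P450s showed no common direction. Of 27 measured genes, 14 lay above 0 and 13 below 0, with a median of 0.01. At 1.5-fold 5 were lower and 0 higher, against 10.2% and 8.07% of all genes. The lower ones were the neutrophil peroxidase gene Mpo, detected in the saline pool only (at least 3.40-fold lower), the neuroglobin gene Ngb (-1.09), the endothelial nitric oxide synthase gene Nos3 (-0.74) and the subunits of the phagocyte oxidase, Cybb (-0.72) and Cyba (-0.62). Among plasma carriers, hemopexin, Hpx, which brings free heme back to the liver, read 17.27 against 17.92 and was 1.58-fold lower (-0.66). That list of 6 genes also holds receptors of the carriers, among them Cd163 (-0.77), which is a macrophage marker above as well. Its median of -0.34 is therefore not a value of the carriers alone. Of the 6 genes, 2 lay above 0 and 4 below 0, against 52.4% and 47.4% of all genes.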

How the data were processed

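Per the submitters' processing notes, Agilent Feature Extraction 9.5 was used. The authors deposited log2 signals of 41012 probes on 2 arrays, with a letter per value, of which P was taken as detected, and a linear fold ratio that equals 2 to the power of the propolis minus the saline value within 1.84e-07 log2 units. The sorted columns differ by at most 0.0255, as after quantile normalization; for background correction the method was not given in the sources used here. In the deposited series matrix these log2 values recur to within 0.005 for 23054 probes, with medians of 7.53 and 7.52, uncentred.

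The values were not scanner signals, so no scaling was added. Symbols were updated by Entrez gene ID to RefSeq GRCr8 names (20959 of 21871 probes with a symbol matched). The brightest probe read a gene, and 11915 genes with P on at least 1 array were measured, 933 of them on 1 array only. For the latter a fold is a bound against the higher of the dim value and the lowest P value (3.83 on both arrays).

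No p-value was computed, since each group has 1 array, whose number limits the precision. Counts at 1.5-fold and 2-fold use measured signals, also for genes detected on 1 array, and are read against shares of all genes counted the same way. P450s were symbols formed of Cyp, a number, letters and a number, so that Cyp51 is not among them. Members and lists were chosen with earlier results of these data known. Of the lists, all measured genes of the pathway, its transport, its regulators and P450 partners could be named, of other lists those at least 1.5-fold apart, and of P450s the 8 highest and 8 lowest detected on both arrays with 8 fixed ones. A few list genes are counted but not reported here by name. The arithmetic was tested on simulated arrays. Python 3.11.15, numpy 2.4.6, pandas 2.3.3, statsmodels 0.14.6 and matplotlib 3.10.9 were used.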

Additional observations from a re-analysis of the deposited data

How the results depend on the processing

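No paired analysis was possible because each group has 1 pool. Under 11 alternatives (median or 75th percentile centring, quantile normalization, loess centring with a span of 0.3, the series matrix, genes detected on both arrays or no detection filter, the mean or median of a gene's probes, 50 signal units added, and a threshold of 1.5-fold) the counts of the 9 enzymes past the threshold stayed at 0 and, in the 10 where it applies, 3 lay above 0. None of the 9 differences changed sign or moved by as much as 1 probe SD, but several alternatives could hardly move them: the deposited columns already had nearly equal distributions, the 9 enzymes were detected on both arrays, and 8 of them have 1 probe. The widest ranges were those of the dim genes, Uros from -0.40 to -0.22 and Ppox from -0.23 to -0.11, and Alas1 ranged from -0.27 to -0.26. The median of the enzymes ranged from -0.18 to -0.11 and that of the P450s from 0.07 to 0.15. At 1.5-fold, 17 P450s were higher and 8 lower, in place of 9 and 5 at 2-fold (14 and 7, in place of 7 and 4, among those detected on both arrays), and with 50 units added 1 P450 was at least 2-fold lower, as the lower P450s were mostly dim.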

Other observations

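Genes of iron handling, which supplies Fech with its substrate, had a median difference of 0.00 over 13 measured genes, with 6 above and 6 below 0. Hamp, the gene of the iron hormone hepcidin, was the 1 gene of that list at least 1.5-fold apart (16.76 against 16.02, 1.66-fold higher). Over all genes detected on both arrays, 12.9% were this far apart.

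Probes that carry a description of a heme enzyme but none of the symbols above did not all move with the named probes. A probe described as a part of heme oxygenase 2, without a symbol, read 7.04 in the propolis pool and 7.45 in the saline pool (-0.41), on the other side of 0 from both Hmox2 probes (0.19 and 0.38). A probe for a predicted transcript similar to biliverdin reductase B read 10.40 against 10.08 (0.32), the same difference as Blvrb to 2 decimals (0.32). Hmox3 differed by -0.03. Of 9 neutrophil markers on the array, 5 were detected on neither array, 2 on a single array and 2 on both. The 4 measured had a median of -1.32, with 3 below 0. Camp, detected in the propolis pool only, lay above 0 (bound 0.28). T and NK cell markers had a median of -0.43 over 8 genes. These values were looked up after the data were seen.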
